A study of Homo sapiens with 16 samples.

Results

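The neutrophil-attracting CXC chemokines examined here were CXCL1, CXCL2, CXCL3, CXCL5, CXCL6 and CXCL8. They were taken by gene symbol, and all 6 were found among the 40663 rows of the deposited count table. The study sequenced 16 RNA libraries, 4 for each of 4 groups, of the human colon fibroblast line Ccd18-Co. Cells of 3 groups received 3 pulses of IL-1B at 0.1 ng/ml together with 10 ng/ml each of IL-17A, TNF and OSM, with cytokine for 72 h and recovery for 96 h in each pulse. They then rested for 1 week and were exposed for 5 days to the solvent DMSO (the vehicle group), to 250 nM belinostat, an inhibitor of histone deacetylases, or to 10 µM GSK-J4, an inhibitor of histone H3 lysine 27 demethylases, and RNA was prepared 2 weeks later. These doses and the group sizes are those of the labels, whereas parts of the study's own text give a lower IL-1B dose and fewer replicates. That text also gives a higher belinostat dose for its assays and a lower GSK-J4 dose for its assay of secreted CXCL5. The unstimulated group received no cytokines, and its sample titles read dmso although its columns in the table read none. Every group therefore comes from the same single cell line, and these libraries hold no patient material. The labels number the 4 libraries of each group without saying whether they came from separate cultures, so p-values measure the spread between these libraries.

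CXC chemokines of this group carry the amino acids glutamate, leucine and arginine just before their first cysteines and act on neutrophils through the receptors CXCR1 and CXCR2. CXCL8, also known as interleukin-8, and CXCL6 signal through both receptors, whereas CXCL1, CXCL2, CXCL3 and CXCL5 act mainly through CXCR2. In gut fibroblasts their genes are known targets of IL-1, TNF and IL-17 signalling by way of NF-kB.

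The 6 genes lie on chromosome 4 within 359 kb, measured between the starts of CXCL8 and CXCL2 in the GENCODE annotation of GRCh38. CXCL8 (ENSG00000169429.12, chr4:73740519-73743716), CXCL6 (ENSG00000124875.10, chr4:73836640-73849064) and CXCL1 (ENSG00000163739.5, chr4:73869393-73871308) are on the plus strand. CXCL5 (ENSG00000163735.7, chr4:73995642-73998677), CXCL3 (ENSG00000163734.4, chr4:74036589-74038807) and CXCL2 (ENSG00000081041.9, chr4:74097040-74099196) are on the minus strand.

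All 6 promoters hold the same run of 9 bases, shown because it was the only searched sequence feature present in every member. The 30 bases around it are given 5′ to 3′ on the strand of the gene, from RefSeq on GRCh38.p14, with the run in capitals.
CXCL8: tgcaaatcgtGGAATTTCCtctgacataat
CXCL6: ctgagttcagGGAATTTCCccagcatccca
CXCL5: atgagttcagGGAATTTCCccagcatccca
CXCL1: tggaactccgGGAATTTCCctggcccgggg
CXCL2: tggagctccgGGAATTTCCctggcccggga
CXCL3: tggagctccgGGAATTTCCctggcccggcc
These stretches are chr4:73740468-73740497, chr4:73836579-73836608 and chr4:73869305-73869334 on the plus strand, and chr4:73998748-73998777, chr4:74099253-74099282 and chr4:74038748-74038777 on the minus strand. The run began 91 bases upstream of the RefSeq start of CXCL8, 90 of CXCL5, 89 of CXCL6, 78 of CXCL1 and CXCL3, and 77 of CXCL2. In GENCODE the stretches of CXCL8, CXCL6, CXCL1 and CXCL2 touch no exon, that of CXCL3 lies in an exon of a CXCL3 transcript with an earlier start, and that of CXCL5 lies in an exon of ENSG00000287037.

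The flanking bases sorted the promoters by family. Of the 21 bases beside the run, CXCL5 and CXCL6 shared 20, CXCL1 and CXCL2 shared 19, CXCL2 and CXCL3 shared 19, and CXCL1 and CXCL3 shared 18. Between these families, or against CXCL8, 5 to 10 were shared. Among 35116 RefSeq promoters (250 bases before the start and 50 after it), GGAATTTCC was present on either strand in 0.461%, although these letters were chosen after the 6 promoters had been seen. The 10-letter NF-kB consensus motif was present in 5.91% of promoters and in 5 of the 6 members, CXCL8 being the exception, and each of its 5 matches overlapped the 9-base run on both strands. The C/EBP motif TTGCNNAA was found in CXCL2 (10.5% of all promoters), and the AP-1 motif TGANTCA (7.71%) and the TATA motif TATAAA (11.5%) were found in CXCL8. These are matches of letters in a fixed window, and binding was not measured here.

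Libraries held 14.4 to 19.5 M estimated counts, with the lowest depth under belinostat (14.4 to 18.3 M). Counts were divided by DESeq2 size factors, which gives the normalized counts used below, and intervals cover the spread between libraries. All 10 fibroblast markers exceeded 50 normalized counts in every library. Of 8 leukocyte and neutrophil markers, 7 stayed under 12 in every library, with CD3E at 0 throughout, and the other one, CD14, ranged from 30.2 to 247. The summed level of the 8 was 36.4 to 115 in unstimulated cells, 83.8 to 189 in vehicle, 95.2 to 259 under belinostat and 81.9 to 167 under GSK-J4. Its part in the chemokine values was not tested. In bulk RNA, fewer cells of a type and less RNA per cell cannot be told apart.

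One library stood apart for these genes. Vehicle replicate 16 had the highest value of its group for 6 of 6 members, and the log2 fold changes of the members in contrasts with vehicle are also given without it. Unstimulated replicate 1 was highest for 5 of 6, and belinostat replicate 17 and GSK-J4 replicate 23 were each highest for 4 of 6.

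Comparison of vehicle with unstimulated cells asked which members still differed weeks after the last cytokine pulse. If the column label none is right, unstimulated cells lacked DMSO, and cytokine and solvent cannot be told apart in contrasts with them. Of the 6 chemokines, 5 rose at an adjusted p under 0.05 and 1, CXCL2, did not pass. Among 16240 genes tested, 1.1% rose and 1.74% changed in either direction. The median log2 fold change of the 6 was 1.28, against 0.00 over all genes tested. In relative terms CXCL5 rose most, by 7.64-fold, followed by CXCL8 (5.12-fold), CXCL6 (3.00-fold), CXCL3 (1.96-fold) and CXCL1 (1.68-fold).

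CXCL8, the best known neutrophil attractant of the family, measured 85.9, 85.1, 63.9 and 75.2 normalized counts in the unstimulated libraries. In the vehicle libraries it measured 287, 319, 369 and 609. The groups did not overlap, and the lowest vehicle library was far above the highest unstimulated one. The log2 fold change was 2.36 ± 0.22 (SE, n = 4 per group, DESeq2 adjusted p = 7.26e-23). CXCL6 measured 683, 528, 404 and 534 in unstimulated cells. In vehicle it reached 1364, 1499, 1330.1 and 2257, with no overlap and most of the spread due to replicate 16. Its log2 fold change was 1.59 ± 0.16 (SE, DESeq2 adjusted p = 1.18e-19).

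CXCL5, a ligand of CXCR2 made by epithelial and stromal cells, was low without cytokines, with 21.2, 10.0, 7.99 and 10.7 normalized counts. After the pulses it measured 89.5, 90.1, 70.8 and 130.0. Every vehicle library was well above every unstimulated one, and the log2 fold change was 2.93 ± 0.30 (SE, DESeq2 adjusted p = 1.18e-19).

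CXCL1, CXCL2 and CXCL3 are near-copies of one another, historically named GRO alpha, beta and gamma. CXCL1 was abundant without cytokines, at 2590.2, 2198, 1983 and 2214 normalized counts. In vehicle it measured 2997, 3373, 3816 and 4904, all above the unstimulated libraries, 0.75 ± 0.13 log2 units higher (SE, DESeq2 adjusted p = 2.18e-06). CXCL3 went from 65.6, 49.1, 46.2 and 42.0 to 84.7, 81.4, 98.7 and 133, also without overlap (log2 fold change 0.97 ± 0.20, SE, DESeq2 adjusted p = 0.000341). CXCL2 had 21.2, 20.0, 23.1 and 20.5 normalized counts in unstimulated cells and 24.7, 33.5, 30.7 and 53.5 in vehicle. These groups did not overlap either, but counts were low and the change did not pass (log2 fold change 0.75 ± 0.31, SE, 95% interval 0.14 to 1.36, DESeq2 adjusted p = 0.329). All 6 members thus had non-overlapping groups with vehicle higher, as did 3.8% of all genes tested. Without vehicle replicate 16 the same 5 members were called, with log2 fold changes of 2.07 for CXCL8, 1.38 for CXCL6, 2.74 for CXCL5, 0.80 for CXCL3 and 0.60 for CXCL1, and that of CXCL2, not called, was 0.48.

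**Figure D1:**
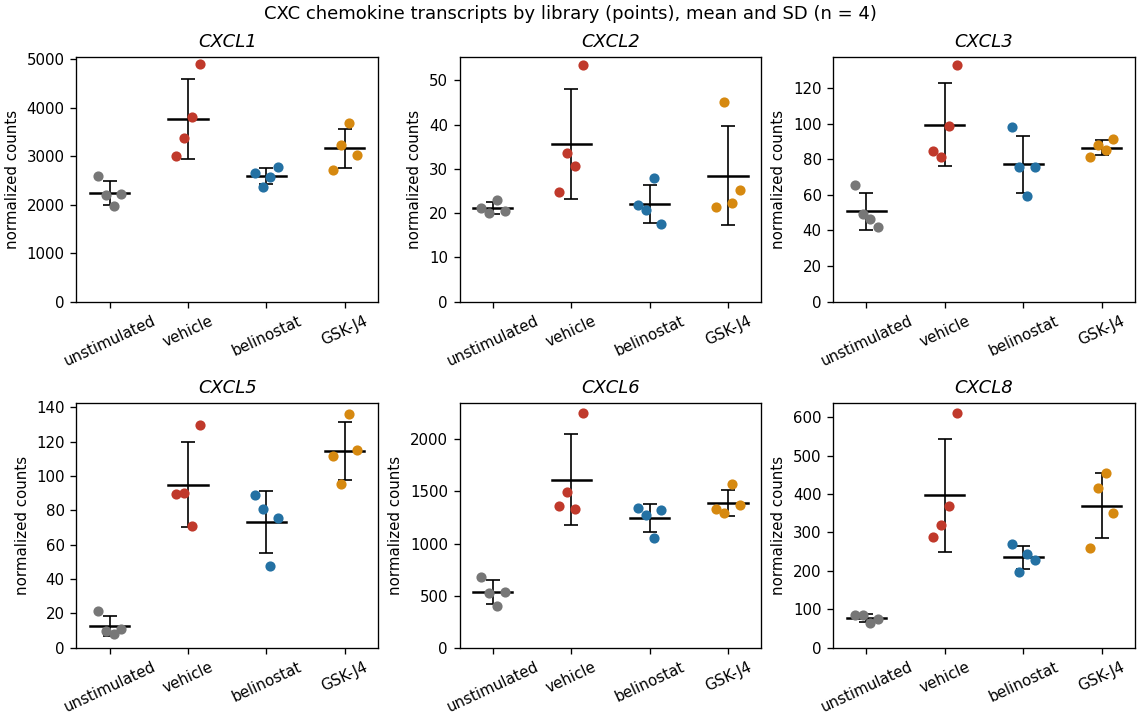
Normalized counts of each CXC chemokine in every library (points, 4 per group), with the group mean (line) and SD (bars) on a linear axis that starts at 0. All 6 genes lie higher in vehicle than in unstimulated cells without overlap, and 1 vehicle library, replicate 16, is the top point of its group in every panel.

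Transcripts of the GRO genes share sequence, which limits how well their reads can be assigned. Of all 31-base words in GENCODE transcripts, 23.6% of those in CXCL2, 13.7% in CXCL1 and 9.23% in CXCL3 also occur in other genes, nearly all within this trio. The share was 18% in CXCL5, mostly with ENSG00000287037, 4.83% in CXCL6 and 0% in CXCL8. With the counts of CXCL1, CXCL2 and CXCL3 summed, the log2 fold change of vehicle over unstimulated cells was 0.75 ± 0.13 (SE, DESeq2 adjusted p = 1.59e-06). CXCL1 supplies nearly all counts of this sum, so the sum says little about CXCL2 or CXCL3 alone.

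The members did not rise by equal amounts. For each of the 15 pairs the log2 ratio of the 2 genes was compared between vehicle and unstimulated libraries with a two-sided exact permutation test, for which the smallest possible p is 0.0286. In 11 of 15 pairs the ratio shifted (adjusted p = 0.039 in each). All 11 were at the smallest possible p, and they passed adjustment only because many pairs reached it together. The pairs share genes and are not independent. CXCL5 gained 2.16 log2 units on CXCL1 and 1.31 on CXCL6, and CXCL8 gained 1.55 on CXCL1 and 0.71 on CXCL6. CXCL6 gained 0.84 on CXCL1. The pairs that did not pass were the 3 within the GRO trio (exact permutation, adjusted p = 0.0714 to 0.657) and CXCL5 with CXCL8 (0.0989). In the 15 pairs between belinostat and vehicle, 0 passed and 0 reached an unadjusted exact p under 0.05, with adjusted p from 0.643 upwards.

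Belinostat was compared with vehicle to see which of these transcripts differed 2 weeks after the inhibitor was removed. CXCL1 and CXCL8 fell, and the other 4 chemokines did not pass. Of 14209 genes tested, 3.13% fell and 6.26% changed in either direction. The median log2 fold change of the 6 was -0.46, against 0.00 over all genes tested, and all 6 estimates were negative.

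CXCL8 measured 271, 198, 243 and 228 normalized counts in the belinostat libraries, all below the lowest vehicle library. This was 1.68-fold lower than vehicle (log2 fold change -0.75 ± 0.21, SE, DESeq2 adjusted p = 0.00973). The call rested on single libraries, because without vehicle replicate 16 the log2 fold change was -0.47 (DESeq2 adjusted p = 0.116) and without belinostat replicate 18 it was -0.68 (DESeq2 adjusted p = 0.0572). CXCL1 measured 2653, 2368, 2565 and 2774 under belinostat, again below every vehicle library. It fell 1.46-fold (log2 fold change -0.54 ± 0.13, SE, DESeq2 adjusted p = 0.000902). This call was kept in all 13 alternatives, including the one without replicate 16 (-0.39, DESeq2 adjusted p = 0.0118). Groups of CXCL1 and CXCL8 were the 2 of 6 that did not overlap with belinostat lower, which held for 5.98% of all genes tested.

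CXCL6 measured 1342, 1271, 1049.7 and 1323 and CXCL5 88.8, 80.6, 47.5 and 75.8 under belinostat. Both ranges overlapped vehicle, CXCL6 by 1 library and CXCL5 more broadly. Log2 fold changes were -0.37 ± 0.16 for CXCL6 (SE, 95% interval -0.68 to -0.06, DESeq2 adjusted p = 0.185) and -0.38 ± 0.24 for CXCL5 (SE, 95% interval -0.84 to 0.09, DESeq2 adjusted p = 0.491). CXCL3 measured 98.3, 75.7, 59.3 and 75.8 and CXCL2 21.96, 20.8, 28.0 and 17.7. Both overlapped vehicle, with 95% intervals of -0.74 to 0.02 and -1.31 to -0.07 on the log2 scale and DESeq2 adjusted p of 0.369 and 0.228. The intervals of these 4 genes all include the estimate of CXCL1. Without vehicle replicate 16 the log2 fold changes were closer to 0, at -0.17 for CXCL6, -0.19 for CXCL5, -0.19 for CXCL3 and -0.43 for CXCL2 (DESeq2 adjusted p = 0.672 to 0.863).

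Under GSK-J4 0 of 6 chemokines were called against vehicle by DESeq2, where 1.92% of 13197 genes were called in either direction. The count was also 0 by edgeR, and 1 member, CXCL1, had an unadjusted DESeq2 p under 0.05. CXCL8 measured 259, 415, 454 and 350.1 normalized counts and CXCL6 1332, 1289, 1572 and 1369. CXCL5 measured 112, 95.2, 136 and 115, and CXCL1 measured 2717, 3237, 3679 and 3019.7. Each range overlapped the vehicle range. CXCL3 measured 81.4, 88.1, 85.3 and 91.2, and CXCL2 measured 21.4, 45.1, 22.4 and 25.2, with replicate 22 far above the other 3 libraries. The 95% intervals of the log2 fold changes were -0.51 to 0.31 for CXCL8, -0.53 to 0.10 for CXCL6, -0.18 to 0.72 for CXCL5, -0.50 to -0.0044 for CXCL1, -0.58 to 0.18 for CXCL3 and -0.92 to 0.27 for CXCL2. CXCL5 was the only member with a positive estimate (0.27 ± 0.23, SE). Without vehicle replicate 16 the estimate of CXCL8 turned from -0.10 to 0.18, that of CXCL1 moved from -0.25 to -0.10 and that of CXCL5 became 0.46. CXCL2, CXCL3 and CXCL6 were then at -0.059, -0.031 and -0.0073, and no member passed.

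**Figure D2:**
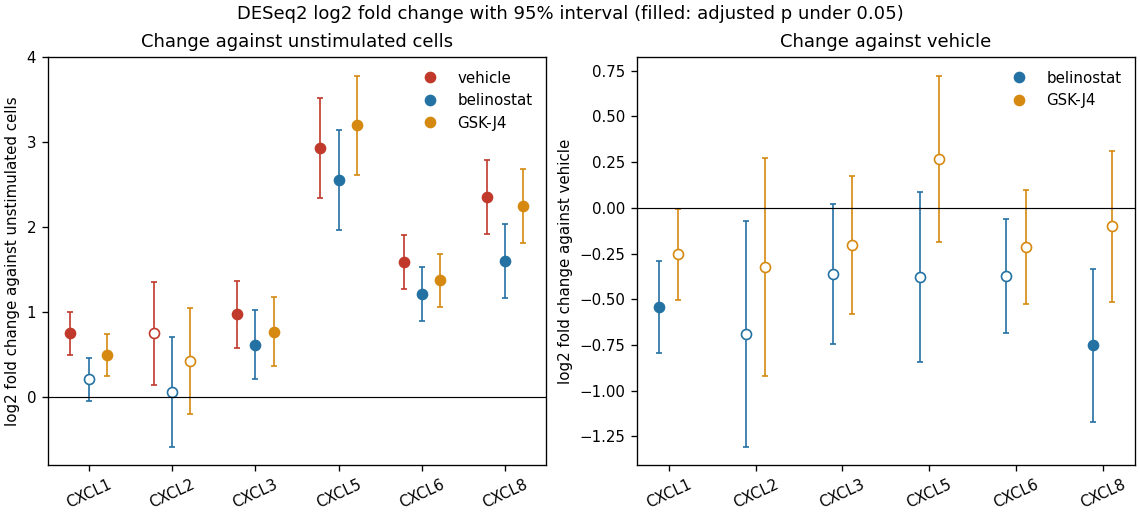
DESeq2 log2 fold changes of the 6 chemokines with 95% intervals, against unstimulated cells on the left and against vehicle on the right (filled points, adjusted p under 0.05). Against unstimulated cells CXCL3, CXCL5, CXCL6 and CXCL8 are called in all 3 cytokine-pulsed groups. Against vehicle the called points are CXCL1 and CXCL8 under belinostat.

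The compound-treated groups were also set against unstimulated cells, and these contrasts share the unstimulated libraries with each other and with the vehicle contrast. After belinostat 4 of 6 chemokines were higher than in unstimulated cells, against 5.51% of 14209 genes. CXCL5 was 5.88-fold higher, CXCL8 3.04-fold and CXCL6 2.32-fold, with adjusted p (DESeq2) of 1.06e-14, 1.62e-10 and 1.24e-11. CXCL3 passed at 1.53-fold (DESeq2 adjusted p = 0.035), a call lost in 8 of 13 alternatives. CXCL1 (log2 fold change 0.21 ± 0.13, SE, 95% interval -0.05 to 0.46) and CXCL2 (0.06 ± 0.33, SE, -0.59 to 0.70) did not pass. After GSK-J4 5 of 6 were higher, against 3.18% of 16747 genes. These were CXCL5 (9.21-fold), CXCL8 (4.77-fold), CXCL6 (2.59-fold), CXCL3 (1.71-fold) and CXCL1 (1.41-fold), with DESeq2 adjusted p between 7.51e-24 and 0.00592.

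The share of the rise above unstimulated cells that was still present describes the same values side by side. Under belinostat it was 73.5% for CXCL5, 66.0% for CXCL6, 54.6% for CXCL3, 49.4% for CXCL8 and 22.5% for CXCL1, as means of 4 libraries. Leaving out 1 library at a time moved it between 66.9 and 85.5% for CXCL5, between 44.4 and 63.6% for CXCL8 and between 17.8 and 29.9% for CXCL1. It moved between 60.7 and 82.4% for CXCL6 and between 40.2 and 70.7% for CXCL3. The range of CXCL3 overlapped those of CXCL5, CXCL6 and CXCL8. Under GSK-J4 it was 124% for CXCL5, 91.6% for CXCL8, 79.4% for CXCL6, 73.5% for CXCL3 and 60.1% for CXCL1. Without vehicle replicate 16 these were 144% for CXCL5, 118% for CXCL8, 99.2% for CXCL6, 95.2% for CXCL3 and 79.8% for CXCL1. CXCL2, whose difference did not pass, is left out. The order of genes was not tested, and the vehicle libraries enter every share.

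Belinostat and GSK-J4 were compared directly, at their own doses and the same exposure and recovery times. CXCL8 was 1.57-fold lower under belinostat (log2 fold change -0.65 ± 0.21, SE, DESeq2 adjusted p = 0.0228), and it was 1 of 6 members called, against 6.01% of 14717 genes lower. The 2 groups of CXCL8 overlapped, since GSK-J4 replicate 21 lay at 259 and belinostat replicate 17 at 271. CXCL5 did not overlap between the compounds and had a similar difference (-0.65 ± 0.24, SE, DESeq2 adjusted p = 0.0512), which missed the threshold. CXCL1 had a difference of -0.29 ± 0.13 (SE, 95% interval -0.54 to -0.04, DESeq2 adjusted p = 0.135). These borderline calls depended on the fit, with 0 members called by edgeR and 3 (CXCL1, CXCL5 and CXCL8) when only these 2 groups were fitted with DESeq2.

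Levels can be compared between genes only per length, so normalized counts were divided by the length of the canonical transcript in kb. CXCL1 was the most abundant chemokine of the 6 in every group, at 1914 ± 215 normalized counts per kb (SD, n = 4) in unstimulated cells and 3213 ± 703 in vehicle. CXCL6 came second, at 349.5 ± 74.4 and 1049 ± 284. The sum over the 6 genes was 2382 ± 304 per kb (SD, n = 4) in unstimulated cells, 4667 ± 1092 in vehicle, 3282 ± 209.8 under belinostat and 3977 ± 463 under GSK-J4. In unstimulated cells the order was CXCL1, CXCL6, CXCL8, CXCL3, CXCL2 and CXCL5, and CXCL8 and CXCL3 could not be separated, as their ranges overlapped and CXCL8 led in 2 of 4 libraries. In the 3 pulsed groups the order was CXCL1, CXCL6, CXCL8, CXCL3, CXCL5 and CXCL2, with overlapping ranges only for CXCL5 and CXCL2.

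The composition of the pool differed between unstimulated and pulsed cells. CXCL1 made up 80.5% ± 1.26 of the summed level per kb in unstimulated cells (SD, n = 4) and 69.0% ± 2.38 in vehicle. CXCL6 made up 14.6% ± 1.31 and 22.4% ± 2.11, CXCL8 1.98% ± 0.16 and 5.06% ± 0.611, and CXCL5 0.209% ± 0.0698 and 0.841% ± 0.14. For each of these 4 genes the unstimulated and vehicle ranges did not overlap. CXCL3 held 1.97% ± 0.225 and 1.98% ± 0.126. Under belinostat the shares were 67.2% ± 2.25 for CXCL1, 24.7% ± 2.04 for CXCL6, 4.36% ± 0.474 for CXCL8 and 0.912% ± 0.208 for CXCL5. Under GSK-J4 they were 67.7% ± 1.04, 22.8% ± 1.68, 5.61% ± 0.774 and 1.19% ± 0.148. The share of CXCL1 in every belinostat library (65.3 to 70.1%) lay below every unstimulated library (79.0 to 82.1%) and overlapped vehicle (66.9 to 72.4%).

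**Figure D3:**
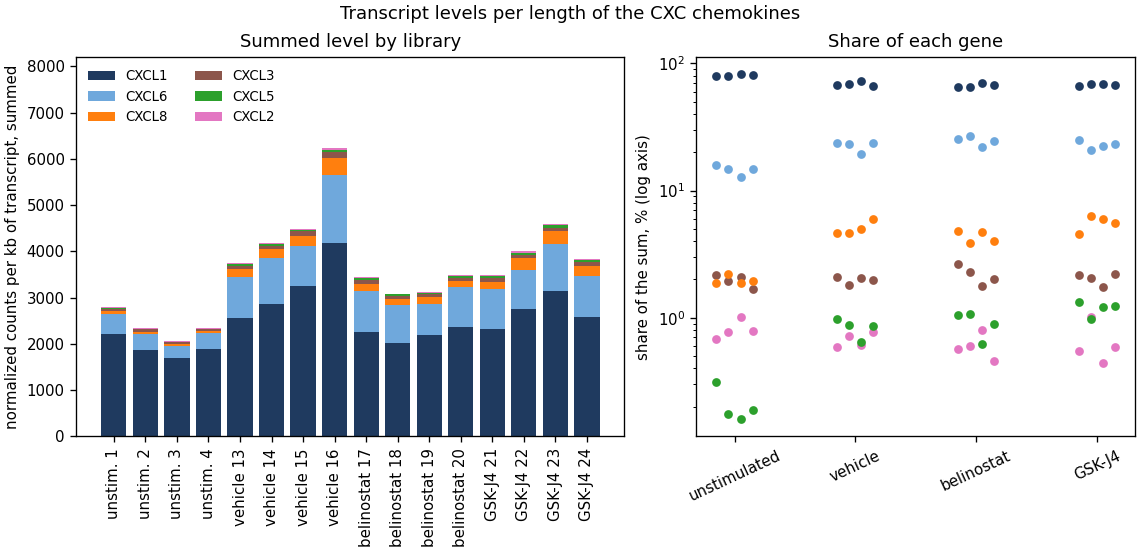
Left, normalized counts per kb of transcript of the 6 chemokines stacked for each library. Right, the share of each gene in that sum on a log axis, with 1 point per library in the same colours, where CXCL1 drops from about 80.5% in unstimulated cells to 67.2 to 69.0% in the pulsed groups while the shares of CXCL5, CXCL6 and CXCL8 are larger.

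Among other genes of the cluster, PF4V1, a variant platelet factor 4 gene that lies between CXCL6 and CXCL1, had values like those of the members. It measured 45.4, 35.0, 22.2 and 33.2 normalized counts in unstimulated cells and 95.2, 81.4, 93.1 and 117 in vehicle. The groups did not overlap, and the log2 fold change was 1.52 ± 0.21 (SE, DESeq2 adjusted p = 8.47e-10). Under belinostat it measured 49.6, 64.7, 66.9 and 74.8 (log2 fold change against vehicle -0.60 ± 0.20, SE, DESeq2 adjusted p = 0.0418), a call lost in 7 of 14 alternatives, edgeR among them. Of 31-base words in PF4V1, 14.3% also occur in PF4 or in ENSG00000288796. PF4 itself reached at most 7.12 normalized counts, and PPBP was at 0.

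Genes beside the chemokine block were examined as well. Of 10 neighbours on chromosome 4, 5 could be tested between vehicle and unstimulated cells (RASSF6, MTHFD2L, EREG, AREG and PARM1) and 0 were called by DESeq2, with 0 also called by edgeR, 0 at an unadjusted DESeq2 p under 0.05 and a median log2 fold change of 0.24. MTHFD2L, which encodes a mitochondrial folate enzyme and starts 374 kb from CXCL8, just beyond CXCL2, measured 56.3 ± 7.84 (SD, n = 4) and 61.8 ± 10.6. RASSF6, EREG and AREG had group means of at most 30.2, and ALB, AFP, AFM, EPGN and BTC were at or near 0. All 5 log2 fold changes of vehicle over unstimulated cells were positive. Those of EREG (0.84 ± 0.45, SE) and AREG (0.95 ± 0.62, SE) were larger than that of CXCL1 (0.75 ± 0.13, SE), but rested on few counts. The lack of a call therefore does not show that these 2 genes were unchanged. PARM1 rose under belinostat (0.71 ± 0.11, SE, DESeq2 adjusted p = 5.72e-09) and fell under GSK-J4 (-0.38 ± 0.11, SE, DESeq2 adjusted p = 0.0273). The GSK-J4 call of PARM1 was lost by edgeR and without vehicle replicate 14, 15 or 16 or any 1 of the GSK-J4 libraries.

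**Figure D4:**
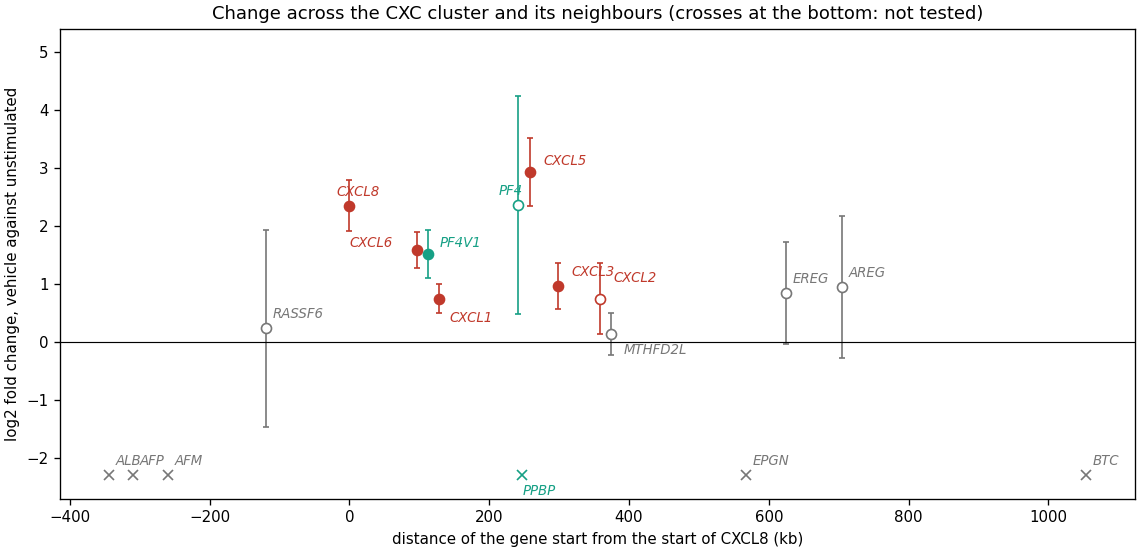
DESeq2 log2 fold change of vehicle over unstimulated cells, with 95% intervals, against the distance of each gene start from the start of CXCL8 (red, members; green, platelet-type CXC genes; grey, neighbours; filled, adjusted p under 0.05; crosses, not tested). The called genes, CXCL8, CXCL6, PF4V1, CXCL1, CXCL5 and CXCL3, all lie within 298 kb of CXCL8, and PARM1 is beyond the plotted span.

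Other CXC chemokines were examined beside the members. Of 11 such genes 6 were tested between vehicle and unstimulated cells, and PF4V1 was the 1 called, where 1.74% of all genes tested changed in either direction. CXCL12, a homeostatic chemokine that acts on lymphocytes and progenitors, measured 3489.9 ± 461 in vehicle and 1845 ± 429 under belinostat (log2 fold change -0.92 ± 0.13, SE, DESeq2 adjusted p = 1.80e-09). CXCL14, a chemokine made by fibroblasts and epithelium at rest, rose under belinostat from 4810.2 ± 838 to 11752 ± 2068 (1.29 ± 0.14, SE, DESeq2 adjusted p = 3.86e-16). Of the receptors, CXCR1 and the scavenging receptor ACKR1 were at 0 in all 16 libraries, and CXCR2 reached at most 4.83 normalized counts.

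Signalling genes were examined for comparison. Of 14 regulators of chemokine transcription or mRNA stability, 1 rose in vehicle over unstimulated cells, where 1.1% of all genes tested rose. The other 13 did not pass, and the median log2 fold change of the list was 0.04. The gene called was TNFAIP3, which encodes the NF-kB inhibitor A20 (0.67 ± 0.15, SE, DESeq2 adjusted p = 0.00142). Under belinostat 5 of 14 fell against vehicle, where 3.13% of all genes tested fell, with a list median of -0.11. They were the NF-kB subunit genes NFKB1 (-0.17 ± 0.06, SE) and NFKB2 (-0.32 ± 0.08), the transcription factor genes CEBPD (-0.23 ± 0.07) and JUNB (-0.44 ± 0.09), and ZFP36 (-0.31 ± 0.08), whose product destabilizes inflammatory mRNAs. DESeq2 adjusted p were 0.000127 to 0.0403. By edgeR 3 of 14 were called, and the count was also 3 without any 1 of the vehicle libraries or without belinostat replicate 17. Under GSK-J4 0 of 14 were called by DESeq2, where 1.92% of all genes tested were called in either direction. By edgeR 0 were called, and 0 had an unadjusted DESeq2 p under 0.05. RELB varied widely between libraries of a group (53.0 ± 55.6 in unstimulated cells, SD, n = 4), and its 95% interval for vehicle over unstimulated cells spanned -3.32 to 1.80.

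Of 9 genes for receptors of the pulsed cytokines and the adaptor of the IL-17 receptor, 1 rose in vehicle, where 1.1% of all genes tested rose. This was OSMR (0.19 ± 0.04, SE, DESeq2 adjusted p = 0.00246), and it was not called by edgeR. Under belinostat 5 of 9 fell, where 3.13% of all genes tested fell, with a list median of -0.21. The count was 3 by edgeR, and 3 without vehicle replicate 13 or 14 or belinostat replicate 20. IL1R1, the signalling receptor of IL-1, fell from 4664 ± 368 to 3325 ± 719 (-0.49 ± 0.12, SE, DESeq2 adjusted p = 0.00092), with 1 belinostat library inside the vehicle range. The TNF receptor genes TNFRSF1A (-0.21 ± 0.04, SE) and TNFRSF1B (-0.47 ± 0.13), OSMR (-0.16 ± 0.04) and IL6ST (-0.21 ± 0.07), which encodes gp130, had DESeq2 adjusted p of 2.59e-06 to 0.0322. The IL-17 receptor genes IL17RA and IL17RC did not pass. Estimates under belinostat were negative for 7 of 9 genes and positive for 2. IL1RAP, a second IL-1 receptor gene of the list, had a positive estimate that did not pass (0.35 ± 0.13, SE, DESeq2 adjusted p = 0.106). Against unstimulated cells IL1RAP was called higher after belinostat (0.43 ± 0.13, SE, DESeq2 adjusted p = 0.0196). The fall was therefore not shared by all genes of the list. Under GSK-J4 0 of 9 were called by DESeq2, where 1.92% of all genes tested were called in either direction. By edgeR 0 were called, and 1 had an unadjusted DESeq2 p under 0.05.

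**Figure D5:**
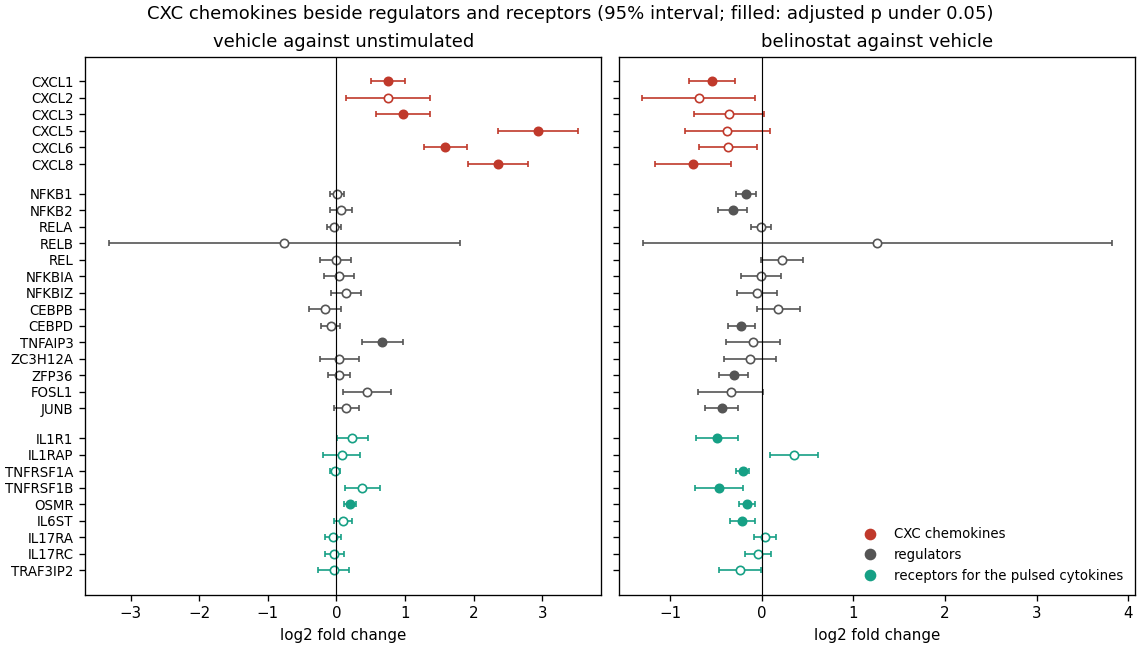
DESeq2 log2 fold changes with 95% intervals of the 6 chemokines (red), 14 regulators (grey) and 9 genes for receptors of the pulsed cytokines (green), for vehicle against unstimulated cells on the left and belinostat against vehicle on the right (filled, adjusted p under 0.05). On the left all 6 chemokine estimates lie above those of every signalling gene shown, and on the right both called chemokines and 10 called signalling genes are below 0.

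The mean profile of the 6 chemokines over the 16 libraries was matched against 11741 other genes with a mean of at least 50 normalized counts. Likeness was the root mean square difference between centred log2 profiles, for which a flat profile gave 0.63. The closest gene was PF4V1 (0.247), followed by LPAR3 (0.273), a receptor for lysophosphatidic acid, IRAK3 (0.300), an inhibitor of IL-1 receptor signalling, WNT4 (0.303), AFAP1L2 (0.330), the growth factor gene NRG1 (0.337), STC1 (0.338) and SFMBT2 (0.352). Among the members CXCL6 was nearest to the mean profile (0.13) and CXCL5 farthest from it (0.726). CXCL5 thus lay farther from the mean than a flat profile, so the matched genes resemble an average and not each member. IRAK3 measured 77.4 ± 5.34 (SD, n = 4) in unstimulated cells, 185 ± 2.00 in vehicle, 175 ± 5.99 under belinostat and 165 ± 23.9 under GSK-J4. These genes were selected for their likeness, so their values are a description and were not tested for it.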

How the data were processed

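RNA sequencing was performed on total RNA of the Ccd18-Co line in 16 libraries, prepared with an RNA library kit and sequenced on an Illumina NextSeq500. The labels name 2 RNA isolation kits without saying which libraries each served. The authors checked reads with FastQC 0.11.9 and MultiQC 1.14 and quantified transcripts with kallisto 0.48.0, and the labels name the build hg38. Per gene symbol the authors deposited estimated counts, in which kallisto divides shared reads among transcripts, and 28% of them were not whole numbers. No molecular identifiers are described, so reads are not known to be independent molecules.

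Estimated counts were rounded to whole numbers and fitted with DESeq2 1.42.0 in R 4.3.3 over all 16 libraries, with a single factor for group, default size factors (median of ratios) and Benjamini-Hochberg adjustment over all genes tested. A gene was called at an adjusted p under 0.05. Fold changes were not shrunken, and 95% intervals are Wald intervals. Groups came from sample titles. Columns of the unstimulated libraries read none where titles read dmso, and they were matched by replicate number. The number of unused columns was 0. In the 24 within-group pairs of libraries, squared differences were 3.02 to 31.7 times those of sampling noise over genes with at least 40 counts, so no library was treated as deposited more than once. Of 40663 rows 26907 held a count. Log2 ratios of gene pairs used a pseudocount of 1 and two-sided exact permutation tests, adjusted over 15 pairs in each contrast.

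Alternatives were edgeR 4.0.16 (quasi-likelihood with TMM), DESeq2 with TMM or total-count scaling, removal of genes under a mean of 10, fits of only the 2 groups compared, the GRO genes summed, and each library left out in turn. Positions are from GENCODE and promoter sequences from RefSeq. All 6 members were named in every contrast. From 6 further lists every gene called between vehicle and unstimulated cells, or between either compound and vehicle, was named, together with the receptors and the 8 genes of most similar profile. Members and lists were chosen with earlier results of these data known.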

Additional observations from a re-analysis of the deposited data

Results flagged for a closer look

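One chemokine value lay far from the rest of its group. CXCL2 measured 45.1 normalized counts in GSK-J4 replicate 22, whereas the other 3 libraries of that group held 21.4 to 25.2. The gap to the nearest library was 0.84 of the whole range of the group. In all 24 groups of 4 libraries were screened in this way, and chance alone marks about 1 in 20. The cause was not tested.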

How the results depend on the processing

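The count of called chemokines was 5 in vehicle against unstimulated cells, 0 in GSK-J4 against vehicle and 5 in GSK-J4 against unstimulated cells under every alternative run. Between belinostat and vehicle it was 2, and 1 to 2 with a library left out, the call of CXCL8 being lost without vehicle replicate 16 or belinostat replicate 18. Between belinostat and unstimulated cells it was 4 or 3, as CXCL3 was lost in 8 of 13 alternatives. Between belinostat and GSK-J4 it was 1, but 0 by edgeR, 2 with TMM scaling, 2 after removal of low genes, 3 with only the 2 groups fitted, and 0 to 2 with a library left out (0 without belinostat replicate 18 or 20 or GSK-J4 replicate 22 or 23, and 2 without belinostat replicate 17). The log2 fold change of CXCL8 for GSK-J4 against vehicle ranged from -0.23 to 0.18 with a library left out, and turned positive without vehicle replicate 16 or GSK-J4 replicate 21 (0.04). That of CXCL2 for belinostat against unstimulated cells ranged from -0.077 (without belinostat replicate 19) to 0.15. Neither passed in any of these fits. Numbers of all genes called were 282 for vehicle against unstimulated cells (edgeR 166, 180 to 295 with a library left out), 253 for GSK-J4 against vehicle (edgeR 91, 2 groups only 542, 132 to 193 with a library left out) and 1461 for belinostat against unstimulated cells (2 groups only 876). With the longest transcript in place of the canonical one, 9 of 24 shares per length moved by more than their SD, chiefly CXCL3 (1.32% in vehicle) and CXCL8 (4.19%). With a minimum of 200 counts, 4 of the 8 genes of like profile were kept. PF4V1, IRAK3, WNT4 and AFAP1L2 had group means below 200 throughout, so the minimum itself removed them and says nothing about their likeness. No paired analysis was possible because the groups share no replicate numbers. The cause of the other shifts was not tested. CXCL2 and unstimulated CXCL5 rest on few counts, which widens their intervals.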

Other observations

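Other secreted factors linked to neutrophils were mostly not expressed in these libraries. Of 11 such genes, CSF2, CSF3, LCN2 and CCL20 had group means of at most 1.02 normalized counts, and IL6 had means of 2.86 to 11.2. C3, the central complement component, was called in vehicle against unstimulated cells and for each compound against vehicle. It measured 89.8, 133, 122 and 89.8 normalized counts in unstimulated cells and 473, 337, 351 and 602 in vehicle (log2 fold change 2.02 ± 0.19, SE, DESeq2 adjusted p = 1.16e-22). Under GSK-J4 it measured 734, 1157, 908 and 811, all above vehicle (1.03 ± 0.18, SE, DESeq2 adjusted p = 7.65e-06), and under belinostat 296, 245, 290.2 and 315 (-0.62 ± 0.18, SE, DESeq2 adjusted p = 0.0165). The belinostat call of C3 was not made by edgeR, and it was lost without vehicle replicate 13 or 16 or belinostat replicate 18. Against unstimulated cells 3 of the 4 genes tested were called higher under GSK-J4, where 3.18% of all genes tested rose. They were C3, LIF, a cytokine of the IL-6 family, and IL1B, which had at most 13.2 normalized counts in any GSK-J4 library. LIF and IL1B were named after their values were seen, and the count was 2 by edgeR and 2 with any 1 library of either group left out.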
